A study of Mus musculus with 10 samples.

Results

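The proteasome subunit genes were taken as all symbols made of Psm, a letter from a to g and a number, where 5 or more of the 10 libraries reached a normalised count of 10. The table of 31510 genes held 48 such symbols, and 47 of them met the value rule and were among the 17556 genes tested. The gene left out, Psma8, which codes for a testis form of an alpha subunit, had normalised counts between 2.34 and 13.5 and reached 10 in 3 libraries. The member closest above the limit, Psmb11, had 14.9 to 36.5 normalised counts and reached 10 in all 10 libraries. The 47 genes lay on 16 chromosomes in the GENCODE M21 annotation of mm10.

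Hippocampi were micro-dissected from male APP/PS1 mice (34832-JAX), which carry amyloid precursor protein and presenilin transgenes and deposit amyloid in the brain. At 8 months of age, 5 mice were given AAV8-Irisin-FLAG and 5 were given AAV8-GFP through the tail vein, and tissue was taken 2 months after injection. AAV8 is a viral vector that mainly reaches the liver, so the FLAG-tagged irisin, a hormone released by muscle, was meant to arrive in the brain through the blood. All 10 mice carried both transgenes and an AAV8 vector, and neither wild-type nor uninjected mice were analysed here. The sources used here do not name the promoter of the vectors. The readout was bulk RNA sequencing of polyadenylated RNA.

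The proteasome is the protease that degrades proteins tagged with ubiquitin. Its barrel-shaped core particle is built from rings of alpha subunits, which gate the entrance, and rings of beta subunits, some of which carry the cutting sites. A regulatory particle on either end recognises ubiquitin, removes it and unfolds the substrate with a ring of ATPases. Interferons induce alternative catalytic subunits that form the immunoproteasome, which favours peptides suited to MHC class I molecules; in the brain this form is mainly known from microglia, including those around amyloid plaques.

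The 47 genes comprised 7 core alpha genes, 7 constitutive core beta genes, the 3 immunoproteasome genes Psmb8, Psmb9 and Psmb10, the thymus beta gene Psmb11, 6 ATPases and 11 non-ATPases of the regulatory particle, 3 assembly factors of the regulatory particle, 4 assembly factors of the core, 4 other activators and the inhibitor Psmf1. The inducible subunits replace constitutive ones at fixed places in the ring: Psmb9 replaces Psmb6, Psmb10 replaces Psmb7 and Psmb8 replaces Psmb5.

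The 250 bases before the RefSeq start are shown for the inducible catalytic genes, for the constitutive counterparts that the promoter table held, and for the ATPase gene Psmc6, since the smallest unadjusted p-values among the members belonged to Psmc6 and Psmb9. The sequences are from RefSeq on GRCm38.p6, whose coordinates are those of mm10, and read 5′ to 3′ on the strand of the gene. Capitals mark matches, on either strand, to the antioxidant response element core TGACNNNGC, the gamma-activated site TTCNNNGAA or the interferon-stimulated response element, searched as GAAA, any 2 bases and GAAA. Psmb9 lies at chr17:34187331-34187580 on the minus strand, Psmb10 at chr8:105938393-105938642 on the minus strand and Psmb8 at chr17:34197945-34198194 on the plus strand. Psmb6 lies at chr11:70525107-70525356 on the plus strand, Psmb5 at chr14:54617996-54618245 on the minus strand and Psmc6 at chr14:45329574-45329823 on the plus strand.
Psmb9: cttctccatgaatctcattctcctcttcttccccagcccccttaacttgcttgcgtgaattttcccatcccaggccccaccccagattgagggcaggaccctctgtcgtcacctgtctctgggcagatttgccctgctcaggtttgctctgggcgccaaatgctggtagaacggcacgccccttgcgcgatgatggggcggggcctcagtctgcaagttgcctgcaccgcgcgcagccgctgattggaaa
Psmb10: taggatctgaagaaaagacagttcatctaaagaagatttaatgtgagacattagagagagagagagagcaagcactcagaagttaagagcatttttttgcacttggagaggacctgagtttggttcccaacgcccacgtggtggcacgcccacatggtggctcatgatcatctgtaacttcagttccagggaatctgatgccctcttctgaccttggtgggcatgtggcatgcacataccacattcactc
Psmb8: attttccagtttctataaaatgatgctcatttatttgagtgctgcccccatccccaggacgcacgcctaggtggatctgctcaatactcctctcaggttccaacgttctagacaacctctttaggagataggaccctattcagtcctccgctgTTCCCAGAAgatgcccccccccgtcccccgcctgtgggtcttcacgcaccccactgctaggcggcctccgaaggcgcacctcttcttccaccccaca
Psmb6: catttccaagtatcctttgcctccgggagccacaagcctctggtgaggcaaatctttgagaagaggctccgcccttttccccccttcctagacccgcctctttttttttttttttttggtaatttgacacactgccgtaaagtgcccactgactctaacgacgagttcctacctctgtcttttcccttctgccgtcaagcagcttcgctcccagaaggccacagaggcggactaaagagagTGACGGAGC
Psmb5: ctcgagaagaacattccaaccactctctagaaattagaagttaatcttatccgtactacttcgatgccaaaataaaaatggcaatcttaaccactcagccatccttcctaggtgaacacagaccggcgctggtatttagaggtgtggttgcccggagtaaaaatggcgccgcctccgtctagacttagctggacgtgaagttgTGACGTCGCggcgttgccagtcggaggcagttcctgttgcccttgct
Psmc6: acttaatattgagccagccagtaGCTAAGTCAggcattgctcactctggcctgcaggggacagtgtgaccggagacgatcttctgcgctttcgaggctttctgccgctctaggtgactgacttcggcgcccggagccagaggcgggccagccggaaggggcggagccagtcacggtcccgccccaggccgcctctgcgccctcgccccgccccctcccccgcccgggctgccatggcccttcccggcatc

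Promoters were matched for 40 of the 47 genes, which held 43 promoters. Shares of members are given per gene, and shares of all promoters per promoter, so the units differ. Of the 43 member promoters, 5 held the antioxidant response element core, 3 the interferon-stimulated response element and 2 the gamma-activated site. The antioxidant response element core, the motif bound by the proteasome gene activator NFE2L1 and its relative NFE2L2, was found in 5 of the 40 genes (12.5%), against 10.2% of all 32851 promoters of that length. In Psmb6 it covered bases 9 to 1 before the start, in Psmb5 bases 47 to 39 and in Psmc6, on the opposite strand, bases 227 to 219. The other matches were in Psmd12 and Psmd9.
The gamma-activated site, a motif of interferon gamma responses, was found in 2 of the 40 genes (5%), against 7.02% of all promoters. These were Psmb8, at bases 97 to 89 before the start, and the core assembly gene Psmg1. The interferon-stimulated response element was found in Psmb3, Psmd4 and Psmd9, which is 7.5% of the 40 genes, against 2.98% of all promoters. Psmb9 and Psmb10 held none of the 3 motifs in the window shown. A match is a match of letters only. In the GENCODE annotation, Psmb8 and Psmb9 have starts upstream of the window shown, and Psmb10, Psmb5 and Psmc6 have starts within it. The distance of a match thus depends on the start used.

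The libraries summed to between 35300000 and 36600000 normalised counts, and these totals reflect the authors' scaling rather than sequencing depth, which is unknown. All 8 hippocampal markers were tested, and their summed level was 38257 to 41755 normalised counts in AAV8-Irisin-FLAG mice and 37975 to 41457 in AAV8-GFP mice. Markers of other cells also varied. All 6 oligodendrocyte markers had a higher fitted level in AAV8-Irisin-FLAG mice (median log2 difference 0.097), 5 of 6 astrocyte markers had a lower one (median -0.043), and all 6 choroid plexus markers tested had a higher one. The 8 choroid plexus markers listed summed to 2915 in AAV8-Irisin-FLAG mouse 4 and 1106 to 1258 in the other AAV8-Irisin-FLAG mice, and to 858 to 1135 in AAV8-GFP mice. Of these sums, Kl alone gave 788 to 920 in AAV8-Irisin-FLAG mice and 650 to 879 in AAV8-GFP mice. Ttr gave 1528 in AAV8-Irisin-FLAG mouse 4, 12.3 to 162 in the other AAV8-Irisin-FLAG mice and 10.1 to 48.3 in AAV8-GFP mice. All 5 red cell markers had a lower fitted level in AAV8-Irisin-FLAG mice, with sums of 1669 to 3211 there and 1586 to 4502 in AAV8-GFP mice. AAV8-GFP mouse 1 stood apart from the other libraries. Of all 17556 genes tested, that mouse had the highest value in 19.7% and the lowest in 20.8%. Among the 47 proteasome genes it was highest in 18 (38.3%) and lowest in 6 (12.8%). The 18 genes had a median principal transcript of 1314 bases, with a range of 555 to 3809, and the 6 genes had a median of 2449 bases, with a range of 1387 to 6491. The part of transcript length or RNA quality in the values of this mouse was not tested. In bulk tissue, fewer cells of a type and less RNA per cell cannot be told apart.

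No proteasome gene passed the test between the groups. None of the 47 had an adjusted p-value under 0.05 in limma, and the lowest adjusted p-value among them was 0.942. Over all 17556 genes, 0 were called at that threshold (0%). At an unadjusted p-value under 0.05, 2 of the 47 genes passed (4.26%), against 788 of all genes (4.49%). The 2 were Psmc6, higher in AAV8-Irisin-FLAG mice, where the background in that direction was 2.28%, and Psmb9, lower in them, where it was 2.21%. No proteasome gene had groups that did not overlap, against 141 of all genes (0.803%), of which 0.382% were higher and 0.422% lower in AAV8-Irisin-FLAG mice.
Of the 47 genes, 22 had a higher and 25 a lower fitted level in AAV8-Irisin-FLAG mice, and the median log2 difference was -0.0002. The median over all genes tested was 0.00099, with 50.5% of them higher. Log2 differences were taken as AAV8-Irisin-FLAG minus AAV8-GFP after 1 was added to each value. Without AAV8-GFP mouse 1 the median of the 47 was 0.013, and over all omissions of 1 mouse it lay between -0.015 and 0.013.
The median standard error of the log2 differences of the proteasome genes was 0.0428, against 0.0752 over all genes tested. It was 0.0459 in the listed partners of the proteasome and 0.0372 in the genes of ubiquitin supply, both described below. In the immunoproteasome genes the median was higher, at 0.144. The 47 genes were not matched for level with all genes tested, and the part of level in these medians was not tested. Their share of all normalised counts was 0.275%, 0.281%, 0.287%, 0.28% and 0.278% in the AAV8-Irisin-FLAG mice, against 0.292%, 0.274%, 0.27%, 0.279% and 0.279% in the AAV8-GFP mice. The 2 ranges overlapped, and the highest share was that of AAV8-GFP mouse 1.

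**Figure D1:**
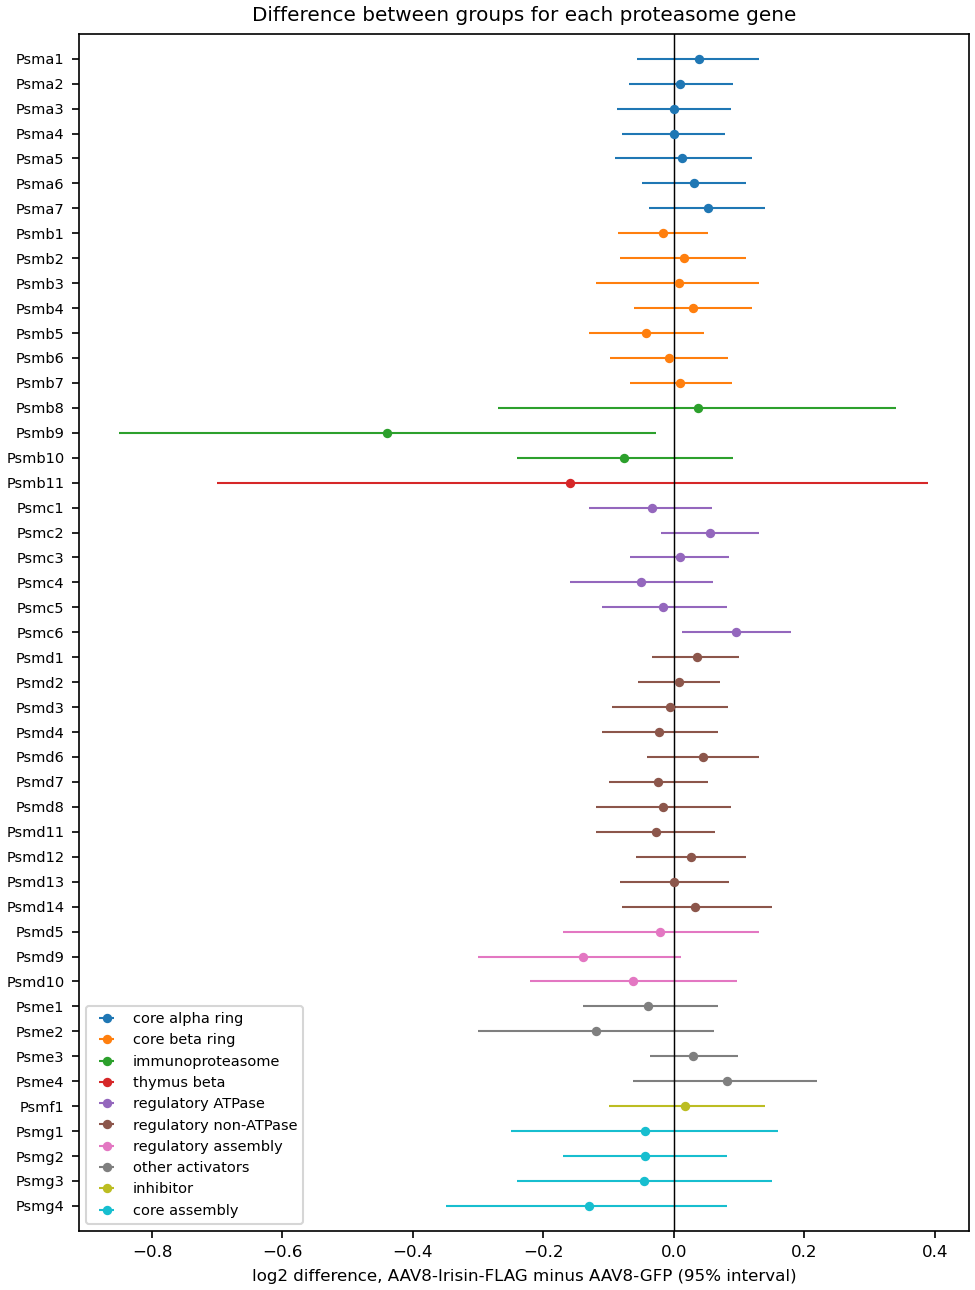
Log2 difference of each of the 47 proteasome genes, AAV8-Irisin-FLAG minus AAV8-GFP, with its 95% interval from limma (5 mice per group), coloured by role. The intervals of Psmc6 and Psmb9 leave out 0 before adjustment; the intervals of the core and regulatory genes are narrow, and those of the low-level genes Psmb9, Psmb8 and Psmb11 are wide.

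On the log2 scale, the SD within groups was 0.337 for Psmb9, 0.254 for Psmb8 and 0.138 for Psmb10. It was lower for the constitutive subunits they replace, at 0.0604 for Psmb6, 0.0613 for Psmb5 and 0.0489 for Psmb7. Relative to its mean, Psmb10 varied more than Psmb7 only in AAV8-GFP mice. In AAV8-Irisin-FLAG mice Psmb10 averaged 728 ± 16.7 and Psmb7 3354 ± 109 normalised counts (SD, n = 5 each). Psmb9, at chr17:34181987-34187764 on the minus strand within the MHC region, had 79.5, 63.8, 48.6, 46.2 and 39.7 normalised counts in AAV8-Irisin-FLAG mice 1 to 5, against 58.5, 69.1, 87.9, 65.8 and 90.4 in AAV8-GFP mice 1 to 5. AAV8-Irisin-FLAG mice 3, 4 and 5 had lower values than any AAV8-GFP mouse, and the other 2 lay within the AAV8-GFP range. The means were 55.6 ± 16 in AAV8-Irisin-FLAG mice and 74.4 ± 14.1 in AAV8-GFP mice (SD, n = 5 each). The log2 difference was -0.44 (standard error 0.191), its 95% interval ran between -0.85 and -0.028, and it had an unadjusted limma p of 0.038 and an adjusted p of 0.942.
Leaving out 1 mouse at a time kept the Psmb9 difference between -0.58, without AAV8-Irisin-FLAG mouse 1, and -0.33, without AAV8-Irisin-FLAG mouse 5. The unadjusted limma p then ran between 0.00626 and 0.105, and the adjusted p between 0.794 and 1. The exons of Psmb9 overlap those of Tap1 on the opposite strand over 212 bases, 5.79% of its exon bases, and reads of that stretch cannot be told apart without a strand setting, which the sources used here do not state.

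Psmb8, the other catalytic gene of the MHC region, at chr17:34197721-34201454 on the plus strand, had 201, 114, 151, 131 and 113 normalised counts in AAV8-Irisin-FLAG mice, against 149, 127, 130, 126 and 144 in AAV8-GFP mice. AAV8-Irisin-FLAG mice held both the highest and the lowest value. The means were 142 ± 36.3 in AAV8-Irisin-FLAG mice and 135 ± 10.4 in AAV8-GFP mice (SD, n = 5 each), a log2 difference of 0.037 with a 95% interval of -0.27 to 0.34 (limma adjusted p = 0.979). The direction turned without AAV8-Irisin-FLAG mouse 1, to -0.095. Psmb8 shares 498 exon bases with the opposite-strand gene Gm20496, 14.7% of its exon bases.

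Psmb10, at chr8:105935735-105938444 on the minus strand, was the most abundant inducible subunit. It had 721, 745, 743, 705 and 726 normalised counts in AAV8-Irisin-FLAG mice, against 955, 737, 774, 665 and 735 in AAV8-GFP mice. The AAV8-Irisin-FLAG values all lay inside the AAV8-GFP range, whose top was AAV8-GFP mouse 1. The means were 728 ± 16.7 in AAV8-Irisin-FLAG mice and 773 ± 109 in AAV8-GFP mice (SD, n = 5 each), a log2 difference of -0.076 with a 95% interval of -0.24 to 0.091 (limma adjusted p = 0.943). Without AAV8-GFP mouse 1 the difference was 0.0025.

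Of their constitutive counterparts, Psmb6, which carries the caspase-like site, had 2209, 2195, 2346, 2126 and 2082 normalised counts in AAV8-Irisin-FLAG mice, against 2335, 2187, 2164, 2220 and 2107 in AAV8-GFP mice. Psmb7, which carries the trypsin-like site, had 3386, 3392, 3498, 3270 and 3222 in AAV8-Irisin-FLAG mice, against 3530, 3333, 3287, 3219 and 3279 in AAV8-GFP mice. Psmb5, which carries the chymotrypsin-like site, had 2568, 2682, 2840, 2651 and 2570 in AAV8-Irisin-FLAG mice, against 2848, 2542, 2764, 2773 and 2785 in AAV8-GFP mice. The groups overlapped in each of the 3 genes, and the highest mouse was AAV8-Irisin-FLAG mouse 3 for Psmb6 and AAV8-GFP mouse 1 for Psmb7 and Psmb5.
The log2 difference of Psmb5 was -0.043 (95% interval -0.13 to 0.046, limma adjusted p = 0.942). That of Psmb6 was -0.0076, with an interval of -0.098 to 0.083. That of Psmb7 was 0.01, with an interval of -0.068 to 0.089, and it was -0.00078 after quantile normalisation. Each of these intervals lay within 0.913-fold to 1.1-fold, the span of the intervals of all 14 constitutive core genes.

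Set against the constitutive counterpart per length of transcript, the inducible genes had the lower RNA level in every mouse. Psmb9 stood at 2.12%, 1.71%, 1.22%, 1.28% and 1.13% of Psmb6 in AAV8-Irisin-FLAG mice, against 1.48%, 1.86%, 2.4%, 1.75% and 2.53% in AAV8-GFP mice. Psmb10 stood at 18.8% to 20% of Psmb7 in AAV8-Irisin-FLAG mice and at 18.3% to 23.9% in AAV8-GFP mice. Psmb8 stood at 2.34% to 4.31% of Psmb5 in AAV8-Irisin-FLAG mice and at 2.51% to 2.89% in AAV8-GFP mice. The ranges of the groups overlapped for all 3 pairs. These are ratios of RNA levels in bulk tissue, taken over all its cells together. They are not ratios within 1 cell type or of subunits in assembled particles.

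**Figure D2:**
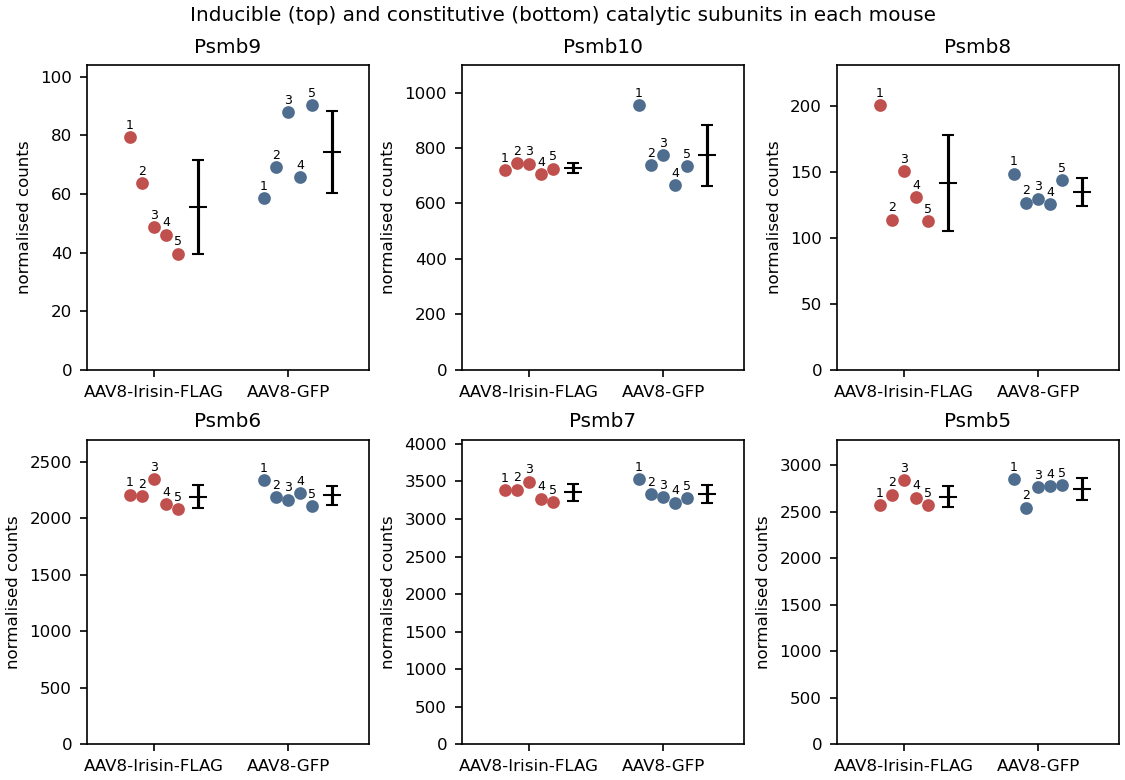
Normalised counts of the inducible catalytic genes Psmb9, Psmb10 and Psmb8 and, below each, of its constitutive counterpart, per mouse (numbers are mouse numbers) with mean and SD of 5 mice. Psmb9 ran between 39.7 and 79.5 in AAV8-Irisin-FLAG mice and between 58.5 and 90.4 in AAV8-GFP mice; axes start at 0 and differ between panels.

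Sums of microglial and of interferon-induced markers also differed between mice, and no association with the immunoproteasome genes was tested. The summed normalised counts of 12 microglial markers were 20140, 18668, 18535, 16254 and 15817 in AAV8-Irisin-FLAG mice, against 17245, 17516, 22779, 18363 and 19799 in AAV8-GFP mice. All 12 markers had a lower fitted level in AAV8-Irisin-FLAG mice, with a median log2 difference of -0.13, and none was at 0 in all libraries. AAV8-GFP mouse 3 had the highest sum and AAV8-Irisin-FLAG mouse 5 the lowest. Psmb9 was also lowest in AAV8-Irisin-FLAG mouse 5, but highest in AAV8-GFP mouse 5. Within the AAV8-Irisin-FLAG group, Psmb9 and this sum ranked the mice in the same order, from mouse 1 down to mouse 5. Within the AAV8-GFP group, both were lowest in mouse 1 and higher in mice 3 and 5 than in the other mice.
Of 10 interferon-induced markers, 8 had a higher fitted level in AAV8-Irisin-FLAG mice, with a median log2 difference of 0.24 and none at 0 in all libraries. Their sums were 2280, 1631, 1216, 1120 and 1032 in AAV8-Irisin-FLAG mice, against 1439, 1145, 1133, 996 and 1008 in AAV8-GFP mice. AAV8-Irisin-FLAG mouse 1, the highest in this sum, was also the highest for Psmb8, while AAV8-Irisin-FLAG mouse 2, the next in this sum, was among the lowest for Psmb8 at 114. Psmb9 had a lower fitted level in AAV8-Irisin-FLAG mice, opposite to most of these markers. Within the AAV8-Irisin-FLAG group, however, Psmb9 and the interferon sum ranked the mice in the same order, from mouse 1 down to mouse 5. Within the AAV8-GFP group, mouse 1 was highest in this sum and lowest for Psmb9. Of 10 markers of T cells and other blood leukocytes, only Ptprc passed the value rule. Their sums were 210 to 277 in AAV8-Irisin-FLAG mice and 184 to 299 in AAV8-GFP mice. Ptprc alone gave 175 to 245 in AAV8-Irisin-FLAG mice and 163 to 266 in AAV8-GFP mice, so these sums mostly give the level of 1 gene. The part of these markers in the immunoproteasome values was not tested.

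Psmb11, the catalytic subunit of thymus epithelium, was the member of lowest level. It had 22.9, 19.8, 36.5, 19.4 and 21.7 normalised counts in AAV8-Irisin-FLAG mice, against 32.3, 14.9, 22.4, 34.2 and 33 in AAV8-GFP mice. The groups overlapped, and the log2 difference of -0.16 had a 95% interval of -0.70 to 0.39 (limma adjusted p = 0.958).

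The constitutive core genes had small differences and narrow intervals. Of the 7 alpha genes, 5 had a higher and 2 a lower fitted level in AAV8-Irisin-FLAG mice, with a median log2 difference of 0.013; Psma3, at -0.00011, was 0.0051 with array weights. Of the 7 beta genes, 4 were higher and 3 lower, with a median of 0.0083, and Psmb7, counted as higher, was lower after quantile normalisation, without AAV8-Irisin-FLAG mouse 3 or without AAV8-GFP mouse 4. The 95% intervals of all 14 genes lay between -0.13, for Psmb5, and 0.14, for Psma7.
Psma7, an alpha ring subunit, had 2360, 2440, 2602, 2614 and 2415 normalised counts in AAV8-Irisin-FLAG mice, against 2476, 2280, 2452, 2461 and 2317 in AAV8-GFP mice. AAV8-Irisin-FLAG mice 3 and 4 lay above every AAV8-GFP mouse. Its log2 difference of 0.052 had an interval of -0.038 to 0.14 (limma adjusted p = 0.942).
Psma1, another alpha ring subunit, had 2035, 2117, 2262, 2106 and 2112 in AAV8-Irisin-FLAG mice, against 2208, 2052, 1970, 1984 and 2149 in AAV8-GFP mice, a log2 difference of 0.038 (limma adjusted p = 0.949). Psmb4, a beta subunit without a cutting site, had 3268, 3521, 3666, 3274 and 3303 in AAV8-Irisin-FLAG mice, against 3500, 3199, 3195, 3412 and 3365 in AAV8-GFP mice, a log2 difference of 0.03 (limma adjusted p = 0.955). Both genes overlapped between the groups and were highest in AAV8-Irisin-FLAG mouse 3.
The other core genes, Psma2 to Psma6 and Psmb1 to Psmb3, had log2 differences between -0.017 for Psmb1 and 0.031 for Psma6.

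In the regulatory particle, 9 of 17 genes had a higher and 8 a lower fitted level in AAV8-Irisin-FLAG mice, and Psmd13, counted as higher at 0.00026, was -0.0051 after quantile normalisation. The intervals of the 17 lay between -0.16, for Psmc4, and 0.18, for Psmc6, which is 0.895-fold to 1.13-fold. The ATPases split evenly, 3 higher and 3 lower, with a median log2 difference of -0.0033.
Psmc6, an ATPase of the unfolding ring, at chr14:45329788-45349705 on the plus strand, had 2130, 2160, 2143, 2150 and 2175 normalised counts in AAV8-Irisin-FLAG mice, against 1937, 2153, 1939, 2050 and 2003 in AAV8-GFP mice. The AAV8-Irisin-FLAG values were close together and 4 of the 5 AAV8-GFP mice lay below all of them, while AAV8-GFP mouse 2 lay among them. The means were 2151 ± 17.1 in AAV8-Irisin-FLAG mice and 2016 ± 89.7 in AAV8-GFP mice (SD, n = 5 each). The log2 difference was 0.095 (standard error 0.038), its interval ran between 0.013 and 0.18, and it had an unadjusted limma p of 0.0261 and an adjusted p of 0.942.
With single mice left out, the Psmc6 difference ran between 0.08 and 0.12, the unadjusted limma p between 0.0068 and 0.065 and the adjusted p between 0.794 and 1. Psmc2, another ATPase of the ring, had 3125, 3263, 3282, 3158 and 3044 in AAV8-Irisin-FLAG mice, against 3188, 2979, 3018, 3087 and 3007 in AAV8-GFP mice. Its groups overlapped, and its log2 difference of 0.055 had a limma adjusted p of 0.942. The 4 other ATPase genes lay between -0.05 for Psmc4 and 0.009 for Psmc3.

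The 11 non-ATPase genes had 6 higher and 5 lower fitted levels in AAV8-Irisin-FLAG mice, with a median log2 difference of 0.00026. Psmd6, a subunit of the lid, had 2160, 2208, 2171, 2302 and 2160 normalised counts in AAV8-Irisin-FLAG mice, against 1977, 2144, 2223, 2136 and 2189 in AAV8-GFP mice. Its log2 difference was 0.045 (limma adjusted p = 0.942), and 0.018 without AAV8-GFP mouse 1, the lowest mouse. Psmd1, a large scaffold subunit of the base, had 4799, 4873, 4669, 4865 and 4943 in AAV8-Irisin-FLAG mice, against 4490, 4756, 4696, 4754 and 4872 in AAV8-GFP mice.
Its log2 difference was 0.035 (limma adjusted p = 0.942), and the groups overlapped in both genes. Psmd2, the other large scaffold subunit, had 6881 to 7204 in AAV8-Irisin-FLAG mice and 6745 to 7140 in AAV8-GFP mice, the highest normalised counts among all members. Psmd14, the deubiquitinase that cuts ubiquitin chains from substrates, had 1969 to 2273 in AAV8-Irisin-FLAG mice and 1921 to 2233 in AAV8-GFP mice, with a log2 difference of 0.033. Psmd4, a ubiquitin receptor, had 2653 to 2864 in AAV8-Irisin-FLAG mice and 2643 to 3001 in AAV8-GFP mice, with a log2 difference of -0.023 that was 0.00039 without AAV8-GFP mouse 1.

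**Figure D3:**
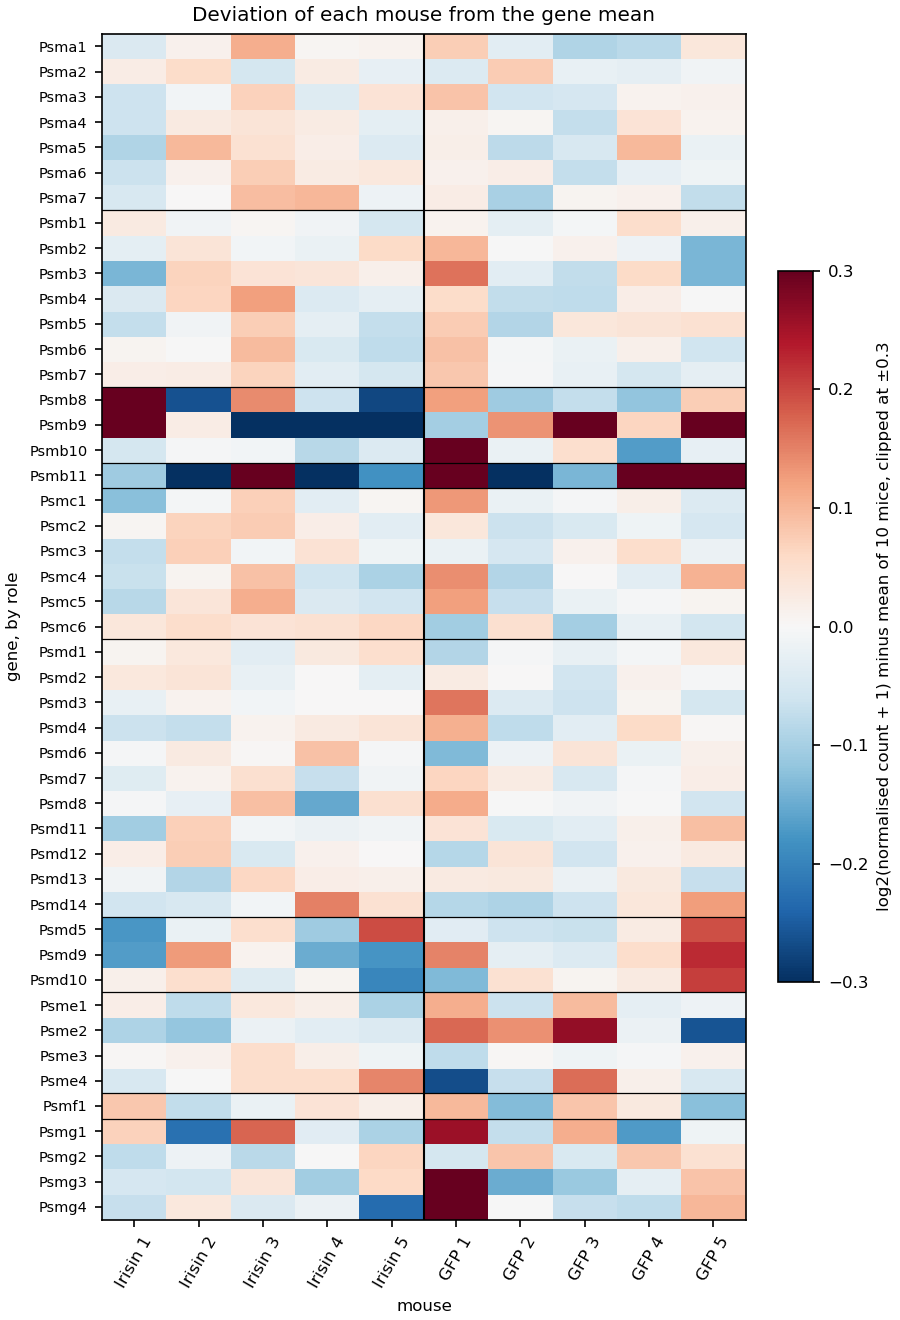
Deviation of each mouse from the mean of 10 mice for each of the 47 genes, on the log2(normalised count + 1) scale and clipped at ±0.3, with AAV8-Irisin-FLAG mice left of AAV8-GFP mice and genes grouped by role. AAV8-GFP mouse 1 is the highest library in 18 of the 47 genes.

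The core and regulatory genes deviated in the same direction in several mice of both groups. The summed normalised counts of the 31 constitutive core and regulatory genes were 85322, 88535, 89522, 87310 and 86711 in AAV8-Irisin-FLAG mice, against 89835, 85654, 85317, 87807 and 86797 in AAV8-GFP mice. The means were 87480 ± 1625 in AAV8-Irisin-FLAG mice and 87082 ± 1826 in AAV8-GFP mice (SD, n = 5 each). The ranges covered each other almost fully, with the 2 highest sums in AAV8-GFP mouse 1 and AAV8-Irisin-FLAG mouse 3.
The mean log2 deviation of a class is the average, over its genes, of the distance of a mouse from the mean of all 10. In AAV8-Irisin-FLAG mouse 3 it was 0.054 for alpha genes, 0.057 for beta genes, 0.063 for ATPases and 0.0086 for non-ATPases. In AAV8-Irisin-FLAG mouse 1 the values were -0.05, -0.032, -0.051 and -0.022 in the same order. In AAV8-GFP mouse 1 they were 0.026, 0.082, 0.051 and 0.013. The 4 classes had the same sign within each of these mice, and the non-ATPases had the smallest deviations.

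**Figure D4:**
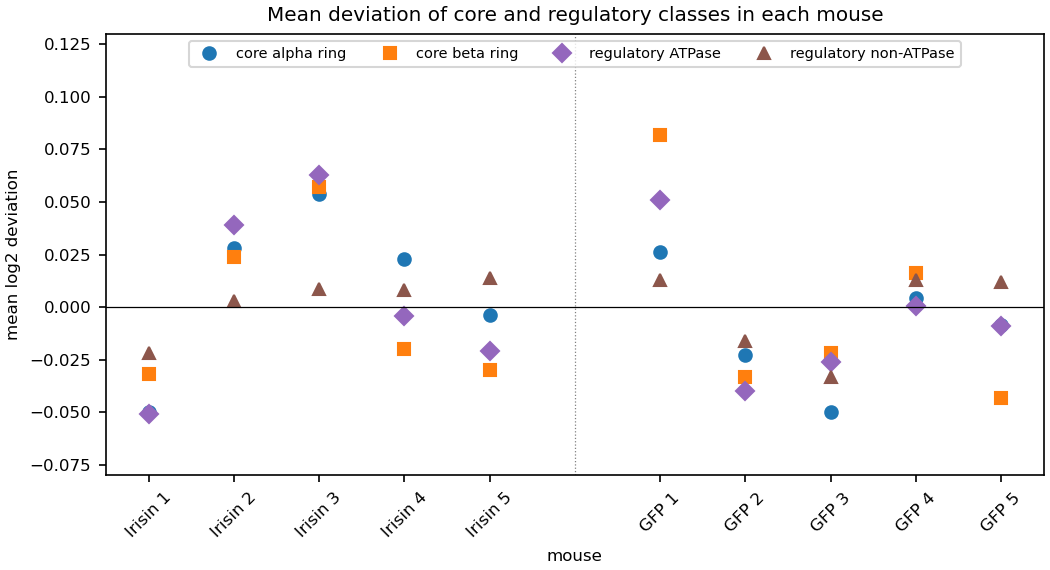
Mean log2 deviation from the mean of 10 mice for 4 classes of constitutive proteasome genes (7 alpha, 7 beta, 6 ATPase and 11 non-ATPase genes) in each mouse. All 4 classes lie above 0 in AAV8-Irisin-FLAG mice 2 and 3 and AAV8-GFP mice 1 and 4, and below 0 in AAV8-Irisin-FLAG mouse 1 and AAV8-GFP mice 2 and 3.

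The assembly factors, chaperones that build the particles and leave them, were the only 2 classes of several genes in which every gene had the same direction. All 7 had a lower fitted level in AAV8-Irisin-FLAG mice, with a median log2 difference of -0.046 and none called by limma. Of all 17556 genes tested, 8688 had a lower one. With single mice left out, Psmg1 reached 0.015, Psmg3 0.027 and Psmd5 0.023, and the other 4 stayed below 0. The mean log2 deviation of the 7 genes was -0.064, -0.015, 0.015, -0.058 and -0.055 in AAV8-Irisin-FLAG mice 1 to 5. In AAV8-GFP mice 1 to 5 it was 0.13, -0.026, -0.031, -0.013 and 0.12. AAV8-GFP mice 2, 3 and 4 thus lay within the AAV8-Irisin-FLAG range.
Psmd9, a chaperone of the ATPase ring, had 738, 906, 835, 748 and 734 normalised counts in AAV8-Irisin-FLAG mice, against 919, 814, 806, 861 and 968 in AAV8-GFP mice. AAV8-Irisin-FLAG mice 1, 4 and 5 lay below every AAV8-GFP mouse. The means were 792 ± 75.8 in AAV8-Irisin-FLAG mice and 874 ± 69.4 in AAV8-GFP mice (SD, n = 5 each), a log2 difference of -0.14 with an interval of -0.30 to 0.011 (limma adjusted p = 0.942). The opposite-strand gene Gm26745 shares 25.5% of the exon bases of Psmd9.
Psmd10, which helps the same ring to form, had 378, 387, 364, 376 and 326 in AAV8-Irisin-FLAG mice, against 341, 386, 376, 381 and 432 in AAV8-GFP mice, a log2 difference of -0.063 (limma adjusted p = 0.949). Psmg4, a chaperone of the core, had 168, 180, 171, 174 and 150 in AAV8-Irisin-FLAG mice, against 229, 176, 168, 167 and 189 in AAV8-GFP mice. Its log2 difference of -0.13 (limma adjusted p = 0.942) was -0.054 without AAV8-GFP mouse 1, the highest mouse. Psmg2, another chaperone of the core, had 409, 427, 408, 431 and 451 in AAV8-Irisin-FLAG mice, against 416, 457, 418, 456 and 445 in AAV8-GFP mice, a log2 difference of -0.044 (limma adjusted p = 0.952). In all of these genes the groups overlapped.

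The other activators bind the ends of the core in place of the regulatory particle. Psme1 and Psme2 code for an interferon-inducible cap, and both overlapped between the groups. Psme1 had 1109, 1037, 1118, 1107 and 1024 normalised counts in AAV8-Irisin-FLAG mice, against 1178, 1045, 1167, 1073 and 1082 in AAV8-GFP mice, a log2 difference of -0.039 (limma adjusted p = 0.952). Psme2 had 498, 490, 525, 520 and 516 in AAV8-Irisin-FLAG mice, against 599, 584, 638, 525 and 444 in AAV8-GFP mice. The AAV8-Irisin-FLAG values lay inside the AAV8-GFP range.
Its log2 difference was -0.12 with an interval of -0.30 to 0.062 (limma adjusted p = 0.942). A near copy, Psme2b, was not a member and had 7.55 to 23.8 normalised counts, and reads shared by the copies could have been split between them. Psme3, a nuclear activator, had 3598, 3620, 3722, 3633 and 3553 in AAV8-Irisin-FLAG mice, against 3400, 3595, 3556, 3580 and 3618 in AAV8-GFP mice, a log2 difference of 0.03 (limma adjusted p = 0.943).
Psme4, a nuclear activator linked to the breakdown of acetylated histones, had 1773, 1833, 1900, 1902 and 2028 in AAV8-Irisin-FLAG mice, against 1524, 1747, 2059, 1852 and 1773 in AAV8-GFP mice. AAV8-GFP mice held both the highest and the lowest value. The log2 difference of 0.081 (limma adjusted p = 0.942) was 0.024 without AAV8-GFP mouse 1. Psmf1, named as an inhibitor of the core from tests with purified protein, had 1050, 944, 979, 1022 and 1006 in AAV8-Irisin-FLAG mice, against 1062, 908, 1053, 1014 and 911 in AAV8-GFP mice, a log2 difference of 0.017 (limma adjusted p = 0.974) that went as low as -0.013 with 1 mouse left out.

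Levels between genes were compared as normalised counts per kilobase of the longest principal transcript, as the mean of all 10 mice. The 14 core genes ranged between 827 for Psma2 and 3006 for Psmb5, and the 17 regulatory genes between 745 for Psmd11 and 3044 for Psmc5. Across these 31 genes the highest level was 4.08 times the lowest. The beta genes had a median of 2753, the ATPases of 2154, the alpha genes of 1748 and the non-ATPases of 1533.
The assembly factors were lower than all 31, at 262 for Psmd10 to 411 for Psmd5. Among the activators the level was 283 for Psme4, 555 for Psme2, 984 for Psme1 and 1347 for Psme3, and Psmf1 stood at 261. Of the inducible genes, Psmb10 stood at 573, Psmb8 at 85.2 and Psmb9 at 48, and the thymus gene Psmb11 at 6.05. The choice of transcript sets these levels, and it does not enter the comparison of the groups.

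**Figure D5:**
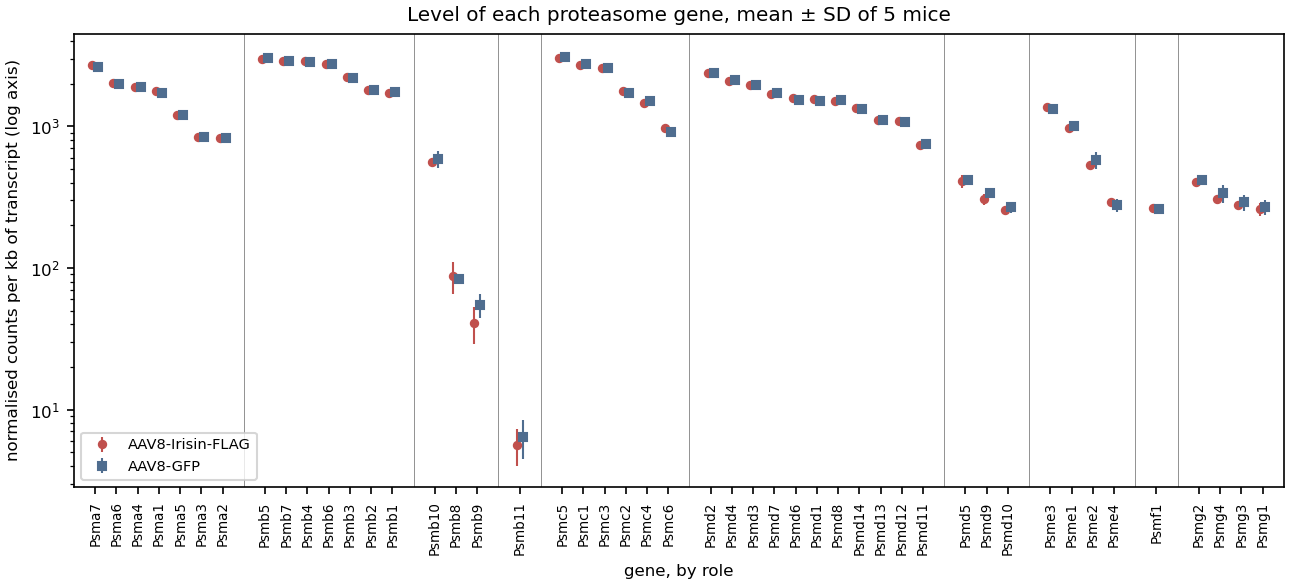
Normalised counts per kilobase of the longest principal transcript (log axis) for each of the 47 genes by role, as mean and SD of 5 AAV8-Irisin-FLAG mice and 5 AAV8-GFP mice. The core and regulatory genes lie between 745 and 3044 as means of all 10 mice, the assembly factors between 262 and 411, and the symbols of both groups lie close together except in Psmb9 and Psmb11.

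Genes that work with the proteasome were not called either. Of 23 listed partners, 20 were in the table under the symbols searched and tested; 10 had a higher and 10 a lower fitted level in AAV8-Irisin-FLAG mice, with a median log2 difference of 0.0016 and 0 at an unadjusted limma p under 0.05. Nfe2l1, the transcription factor that raises proteasome genes when the protease is inhibited, averaged 11411 ± 629 normalised counts in AAV8-Irisin-FLAG mice and 11680 ± 542 in AAV8-GFP mice (SD, n = 5 each). Its relative Nfe2l2 averaged 477 ± 20 in AAV8-Irisin-FLAG mice and 488 ± 33.9 in AAV8-GFP mice. Both differences were smaller than the SD within the groups.
Pomp, which matures the core, averaged 2151 ± 184 in AAV8-Irisin-FLAG mice and 2204 ± 131 in AAV8-GFP mice. The ubiquitin receptor Adrm1 averaged 2184 ± 103 in AAV8-Irisin-FLAG mice and 2180 ± 217 in AAV8-GFP mice. Of the deubiquitinases bound to the particle, Usp14 averaged 4825 ± 202 in AAV8-Irisin-FLAG mice and 4740 ± 308 in AAV8-GFP mice, and Uchl5 averaged 1099 ± 58.5 in AAV8-Irisin-FLAG mice and 1113 ± 109 in AAV8-GFP mice.
The smallest p-value among the partners belonged to Zfand5, a zinc-finger protein that binds and activates the proteasome. It had 6142, 6254, 6368, 6140 and 6073 in AAV8-Irisin-FLAG mice, against 5780, 6061, 6015, 6073 and 5862 in AAV8-GFP mice, and the groups did not overlap: every AAV8-Irisin-FLAG mouse lay above every AAV8-GFP mouse, the closest 2 both rounding to 6073, where 0.382% of all genes did so in this direction. Its log2 difference was 0.056 with an interval of -0.0064 to 0.12 (limma adjusted p = 0.942). Ngly1, the glycanase that processes NFE2L1, had a log2 difference of 0.091 (limma adjusted p = 0.942), and Akirin2, which brings proteasomes into the nucleus, one of -0.065 (limma adjusted p = 0.942).

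Of 9 genes of ubiquitin supply that were tested, 4 had a higher and 5 a lower fitted level in AAV8-Irisin-FLAG mice, with a median log2 difference of -0.00021 and 0 at an unadjusted limma p under 0.05. Among those of smallest p were Ufd1, a cofactor of the unfoldase VCP, with a log2 difference of 0.052, and the activating enzyme Uba1, with -0.027.
Of 14 genes of MHC class I processing that were tested, 7 had a higher and 7 a lower fitted level, with a median of -0.0027 and 0 at an unadjusted limma p under 0.05. Nlrc5, an activator of class I genes, had 126, 72.4, 68.5, 30.2 and 34.2 normalised counts in AAV8-Irisin-FLAG mice, against 57.8, 40.9, 59.1, 44.6 and 31.1 in AAV8-GFP mice. It was highest in AAV8-Irisin-FLAG mouse 1, as Psmb8 was.
Tap1, the peptide transporter gene beside Psmb9, had 247, 233, 165, 188 and 151 in AAV8-Irisin-FLAG mice, against 194, 183, 200, 186 and 175 in AAV8-GFP mice, a log2 difference of 0.042 (limma adjusted p = 0.971). B2m, the light chain of class I molecules, had 3028, 2686, 2554, 2200 and 2338 in AAV8-Irisin-FLAG mice, against 2592, 2378, 3000, 2364 and 2543 in AAV8-GFP mice, a log2 difference of -0.011 (limma adjusted p = 0.988). Calr, a chaperone of class I loading, had a log2 difference of -0.099 (limma adjusted p = 0.942). The groups overlapped in all of these class I genes.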

How the data were processed

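Polyadenylated RNA of 10 hippocampi, 1 per mouse, was sequenced on an Illumina HiSeq, per the labels' protocols. Per the submitters' processing notes, the authors used bcl2fastq 2.17 and DESeq2 (no version stated), with the build mm10; the sources used here do not state the aligner, the counting, its strand setting or the annotation. The authors deposited a signal for each gene in each library, which the name of their table calls DESeq2 normalised counts. The value of 1 read varied between genes, so whole reads could not be recovered and no count model was used. Depth is unknown, and precision is given as the spread between mice.

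Values were analysed as log2(value + 1) with limma 3.58.1 in R 4.3.3 (lmFit and eBayes with trend, group as the factor, two-sided), with Benjamini-Hochberg adjustment over the 17556 genes that reached 10 in 5 or more libraries and a threshold of 0.05. The procedure was tested on simulated data. The 5 mice of a group are separate animals by their titles.

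Values for every mouse are given for the catalytic, activator and inhibitor genes and for the 2 genes of smallest unadjusted p in each class; of each pathway list the 3 genes of smallest p are named, beside a fixed set, except that some are not reported here. The members and lists were chosen with earlier results of these data known. Positions and overlaps are from GENCODE M21 on mm10, and promoters from RefSeq on GRCm38.p6, searched on both strands with Python 3.11.15. Other pseudocounts, filters, scalings, weights, a replicate block and the omission of each mouse were tried.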

Additional observations from a re-analysis of the deposited data

Results flagged for a closer look

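In each of the 94 groups of 5 mice, given by 47 genes and 2 treatments, the highest and the lowest mouse were compared with the nearest other mouse by Dixon's ratio, and a ratio above 0.71 marked a mouse as far from the rest. Chance marks about 1 in 20 groups, and 5 of the 94 were marked. Psmb11, the thymus subunit of lowest level, had 36.5 normalised counts in AAV8-Irisin-FLAG mouse 3, where the next highest mouse of that group had 22.9. Psmb3, a core beta subunit, had 1534 in AAV8-Irisin-FLAG mouse 1, below the next mouse at 1703. Psma2, a core alpha subunit, had 2536 in AAV8-GFP mouse 2, above the next mouse at 2389. Psmb5, the chymotrypsin-like subunit, had 2542 in the same mouse, below the next at 2764. Psme3, the nuclear activator, had 3400 in AAV8-GFP mouse 1, below the next at 3556.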

How the results depend on the processing

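Under all alternatives and omissions of 1 mouse, 0 proteasome genes were called by limma, and the lowest adjusted p-value of a member was 0.794. Without the filter on low values, 1 gene of all tested was called: Gm49383, named after its values were seen, listed at 0 in all AAV8-Irisin-FLAG mice and at 2.66 to 13.9 in AAV8-GFP mice (limma adjusted p = 0.0108). With all other settings and with any mouse left out, 0 genes were called. Under 9 other settings, 43 of 47 members never changed direction. By construction, a changed filter, a prior variance without trend or the replicate block leaves the log2 difference of a gene as it was. Only the pseudocounts, the scalings and the array weights could thus turn a direction. The members that turned were Psma3 (0.0051 with array weights), Psmb7 (-0.00078 after quantile normalisation), Psmd3 (0.016 with array weights) and Psmd13 (-0.0051 after quantile normalisation and -0.0016 with array weights). The cause was not tested. With single mice left out, 25 members never changed direction and 22 did, with these lowest and highest log2 differences: Psma2 -0.0021 to 0.031, Psma3 -0.018 to 0.021, Psma4 -0.018 to 0.015, Psma5 -0.0098 to 0.039, Psmb2 -0.016 to 0.043, Psmb3 -0.025 to 0.05, Psmb6 -0.032 to 0.014, Psmb7 -0.0048 to 0.032, Psmb8 -0.095 to 0.11, Psmb10 -0.13 to 0.0025, Psmc3 -0.0079 to 0.028, Psmc5 -0.045 to 0.013, Psmd2 -0.0053 to 0.016, Psmd3 -0.022 to 0.033, Psmd4 -0.045 to 0.00039, Psmd8 -0.042 to 0.019, Psmd13 -0.017 to 0.022, Psmd14 -0.00057 to 0.068, Psmd5 -0.074 to 0.023, Psmf1 -0.013 to 0.044, Psmg1 -0.093 to 0.015 and Psmg3 -0.088 to 0.027. Mouse numbers shared by the groups gave no sign of pairing, though 5 correlations cannot exclude a weak one. The correlations of same-numbered mice were -0.0576, 0.0297, -0.0891, -0.0348 and 0.0141, and only mouse 5 correlated best with its own number. The fit with the mouse number as a replicate block called 0 genes and 0 members, with 862 genes at an unadjusted p under 0.05, Psmc6 among them (0.0443) and Psmb9 not (0.0671). The sequencing depth is unknown, so its part in the wide intervals of Psmb9, Psmb8 and Psmb11 was not tested.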
